A study of Mus musculus with 10 samples.

Results

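The costimulatory and CD2-type receptors of T cells were followed through 10 primary mediastinal lymphomas, 1 microarray per mouse, as the transcripts of Cd2, Cd28, Ctla4, Icos, Cd27, Cd5, Cd6 and Cd69. These 8 genes were listed by name with earlier results of the same arrays known, and each was read from the probe set that carries its symbol alone, the one of highest mean where there are several. Every one of the 8 had a single such probe set and passed the filter on dim probe sets, so the 8 stand among 12670 genes tested and 19937 with a probe set of 1 symbol. The level given is the log2 of the deposited intensity, which can be compared between arrays for 1 gene and not between genes.

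All 10 mice carried the NPM-ALK transgene, a fusion kinase of anaplastic large cell lymphoma, on a c57BL/6 background and received no treatment. In 5 of them, labelled WT, WASP was intact, and in 5, labelled WASP -/-, the cytoskeletal regulator WASP was deficient. The lymphomas arose at 4 to 5 months of age. WASP-deficient females and males were both used, the labels do not give the sex of single animals, and the promoter that drives the transgene is not given in the sources used here. Each replicate is labelled biological, and the p-values below measure the spread between these animals.

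T cells read antigen through the T cell receptor, and receptors of this group set how strongly they respond. CD2 binds CD48 on a neighbouring cell and passes signals through adaptors of its tail, among them PSTPIP1, which also binds WASP. CD28 and ICOS bind ligands of the B7 family and add costimulation through phosphoinositide 3-kinase, while CTLA-4 takes the CD28 ligands away and restrains the cell. CD27 is a costimulatory TNF receptor that binds CD70, CD5 and CD6 are scavenger-type receptors that temper receptor signals, and CD69 is an early activation lectin that holds lymphocytes in tissue by removing the egress receptor S1P1. In the thymus these genes come on at different steps of T cell maturation.

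Cd28, Ctla4 and Icos lie next to each other on mouse chromosome 1, and Cd5 and Cd6 next to each other on chromosome 19, by the RefSeq gene order. A promoter sequence matched 3 of the 8 genes, Ctla4, Cd27 and Cd5. Those of Ctla4 and Cd5 are shown because on WASP-intact arrays 4 and 5 Ctla4 was at its highest levels and Cd5 at its lowest. Each is the 250 bases before the RefSeq start in GRCm38.p6, with matches to the motifs given after them in capitals.
Ctla4, chr1:60908775-60909024, plus strand: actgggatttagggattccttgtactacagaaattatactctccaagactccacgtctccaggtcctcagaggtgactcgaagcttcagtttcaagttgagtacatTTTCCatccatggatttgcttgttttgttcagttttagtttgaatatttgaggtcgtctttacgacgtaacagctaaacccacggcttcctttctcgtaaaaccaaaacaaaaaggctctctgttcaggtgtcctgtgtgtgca
Cd5, chr19:10738975-10739224, minus strand: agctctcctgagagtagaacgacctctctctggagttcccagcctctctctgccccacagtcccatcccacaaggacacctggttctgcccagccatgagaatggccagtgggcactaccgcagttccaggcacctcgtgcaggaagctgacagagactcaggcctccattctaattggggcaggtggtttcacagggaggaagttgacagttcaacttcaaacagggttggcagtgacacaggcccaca
Motifs of 4 T cell transcription factor families were searched on both strands. The NFAT core GGAAA was held by 55.6% of 32851 RefSeq promoters of the same length. For the RUNX core, TGTGGT, that share was 14.0%. A GATA site, spelled AGATAA, was in 9.99% of them. The STAT site TTCNNNGAA, which GGAAA can overlap, was in 7.02%. The Ctla4 promoter held 1 match, to the NFAT core on the opposite strand, and the Cd5 promoter held 0 matches to any of the 4. The Cd27 promoter, not shown, also held 1 match, to the NFAT core.

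The array-wide background was checked first. Was, which encodes WASP, ran from 9.11 to 9.34 with WASP intact and from 7.92 to 8.20 without it, a log2 difference of -1.14 (SE 0.08, limma adjusted p = 0.00088, n = 5 each). It was the single gene of 12670 past the threshold of 0.05, or 0.00789% of genes tested. Adding Xist to the limma fit ended that call, at a difference of -1.06 and an adjusted p of 0.376. A block on replicate numbers also ended it, at -1.14 and an adjusted p of 0.136 in limma.

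Sex-linked genes followed genotype on 9 of the 10 arrays. Xist, the RNA that silences an X chromosome in females, was at 11.52 to 11.90 on WASP-intact 1, 2, 4 and 5 and at 4.40 to 5.58 on WASP-intact 3 and every WASP-deficient array. The Y-linked genes Kdm5d and Uty were low on those 4 arrays (4.61 to 5.51 and 3.82 to 4.42) and high on the other 6 (8.20 to 9.19 and 8.50 to 9.49). Y-linked Eif2s3y was at 3.60 to 4.05 on the 4, at 5.96 on WASP-deficient 2 and at 9.25 to 10.32 on the rest. Females and males are both named in the design for WASP-deficient mice, but all 5 WASP-deficient arrays had the Xist-low pattern. On these arrays sex and genotype therefore largely cannot be told apart, in every genotype difference below. Without WASP-intact 3, the genes past the threshold were Was, Xist, Kdm5d and Uty.

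The first principal component of all genes held 60.9% of the variance and set 3 arrays apart, WASP-intact 4 and 5 at 51.6 and 49.0 and WASP-deficient 1 at 42.2, against -25.8 to -15.8 for the other 7. It was the same 3 arrays when the 8 receptor genes were left out of the component (60.7% of the variance). The score did not differ by genotype past 0.05 (exact two-sided permutation p = 0.222). This set of 3 was noticed in the measurements and is no group of the study, so their values are described and not tested. Of the genes that mark T cells, Cd3e and Thy1 were at 12.06 to 12.59 and 11.86 to 12.31 on all 10 arrays. Cd3d and Cd3g were lower on the 3 arrays apart on the component. Another marker of the list, Cd247, lay between 9.46 and 10.60 on all 10 arrays, and its sets overlapped. Cd3d was at 5.26, 5.60 and 6.47 on WASP-intact 4 and 5 and WASP-deficient 1, against 8.96 to 10.08 on the other 7. Cd3g was at 6.29, 6.97 and 10.24 there, against 11.45 to 12.23.

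Cd2 showed the widest spread of the 8. It was at 6.66, 6.52, 6.10, 11.18 and 11.30 on WASP-intact arrays 1 to 5 and at 11.52, 6.62, 6.90, 6.42 and 6.11 on WASP-deficient arrays 1 to 5. Its levels thus fell into a high set of 3 arrays, the ones apart on the component, and a low set of 7, with nothing between 6.90 and 11.18. The lowest to highest array spanned 5.42 log2 units, 42.9-fold, and 17 of 12670 genes spanned more. Within the high set Cd2 varied by 0.35 and within the low set by 0.80. In whole tumours fewer cells that carry a transcript and less of it per cell cannot be told apart, for Cd2 and for every level below.

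Cd28, the main costimulatory receptor of resting T cells, was high on the same 3 arrays and spread more among the others. Its levels were 8.09, 7.97, 7.27, 11.10 and 11.06 on WASP-intact arrays 1 to 5, and 11.24, 7.90, 6.58, 6.64 and 6.14 on WASP-deficient arrays 1 to 5. The 3 high arrays agreed within 0.18, and the next array lay 2.97 below them. The 7 low arrays ranged over 1.94, with 3 WASP-deficient arrays (3, 4 and 5) below every WASP-intact one.

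Ctla4, the inhibitory counterpart of Cd28, was at 7.60, 8.0, 7.41, 9.10 and 9.20 on WASP-intact arrays 1 to 5 and at 8.56, 8.35, 7.29, 8.38 and 6.27 on WASP-deficient arrays 1 to 5. The same 3 arrays were highest, yet WASP-deficient 4 came within 0.18 of them, and WASP-deficient 5 was lowest. Icos, the costimulator of activated T cells, measured 7.0, 6.74, 6.60, 7.15 and 7.10 in the WASP-intact lymphomas, in the same order, and 7.17, 6.62, 6.93, 6.24 and 6.12 in the WASP-deficient ones. The 3 arrays again led, by 0.10, over a total range of only 1.05. WASP-deficient arrays 4 and 5 had the lowest Icos levels, under the filter level of 6.35 for a mean.

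The 3 neighbours on chromosome 1 therefore shared their 3 highest arrays with ranges of 5.09 (Cd28), 2.93 (Ctla4) and 1.05 (Icos). Raph1, the tested gene on the Cd28 side of this cluster, was also higher there, at 7.90 to 8.19 against 7.07 to 7.70. Pard3b, on the Icos side, was between 6.40 and 6.72 on all arrays and its sets overlapped. Beside Cd2, the nearest tested genes Igsf3 and Ptgfrn stayed between 7.97 and 8.69 and between 7.82 and 9.04, and the sets overlapped for both. These neighbours were chosen by position.

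Cd27 did not separate the arrays. It was at 11.17, 10.53, 9.90, 11.25 and 11.0 on WASP-intact arrays 1 to 5 and at 11.23, 10.30, 10.16, 10.04 and 10.88 on WASP-deficient arrays 1 to 5. The 3 arrays high in Cd2 were at 11.0 to 11.25, but WASP-intact 1 reached 11.17, and the lowest was WASP-intact 3. The whole range was 1.35.

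Cd5 and Cd6, the paired scavenger-type receptors, went different ways. Cd5 was at 7.38, 7.33, 7.32, 6.57 and 6.67 on WASP-intact arrays 1 to 5 and at 7.07, 6.99, 7.13, 7.21 and 7.28 on WASP-deficient arrays 1 to 5. WASP-intact 4 and 5, both high in Cd2, had the lowest Cd5, while WASP-deficient 1, also high in Cd2, lay within the range of the other 7. Cd6 measured 6.88, 6.89, 6.75, 6.81 and 6.89 in the WASP-intact lymphomas, in the same order, and 7.75, 6.62, 6.79, 7.21 and 6.67 in the WASP-deficient ones. Only WASP-deficient 1 and, less so, WASP-deficient 4 stood above the 6.62 to 6.89 of the others. Vps37c on the Cd5 side was lower on the 3 arrays, at 8.16 to 8.20 against 8.30 to 8.83, and Slc15a3 on the Cd6 side overlapped.

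Cd69 varied along other lines than Cd2. Its levels were 7.68, 7.37, 7.04, 6.78 and 6.88 on WASP-intact arrays 1 to 5, and 7.24, 5.60, 7.51, 7.97 and 9.33 on WASP-deficient arrays 1 to 5. Both the highest and the lowest array were WASP-deficient, 3.73 log2 units or 13.3-fold apart, and the 3 arrays high in Cd2 lay inside that range. The highest 2, WASP-deficient 5 and 4, were also the 2 apart on the second component (24.8 and 22.4, against -13.4 to 3.79, with 10.7% of the variance). S1pr1, the egress receptor that CD69 removes, stayed between 6.90 and 7.89. Klf2, a transcription factor that raises S1pr1, was at 8.82 on WASP-deficient 5 and at 7.41 to 7.89 on the other 9.

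**Figure D1:**
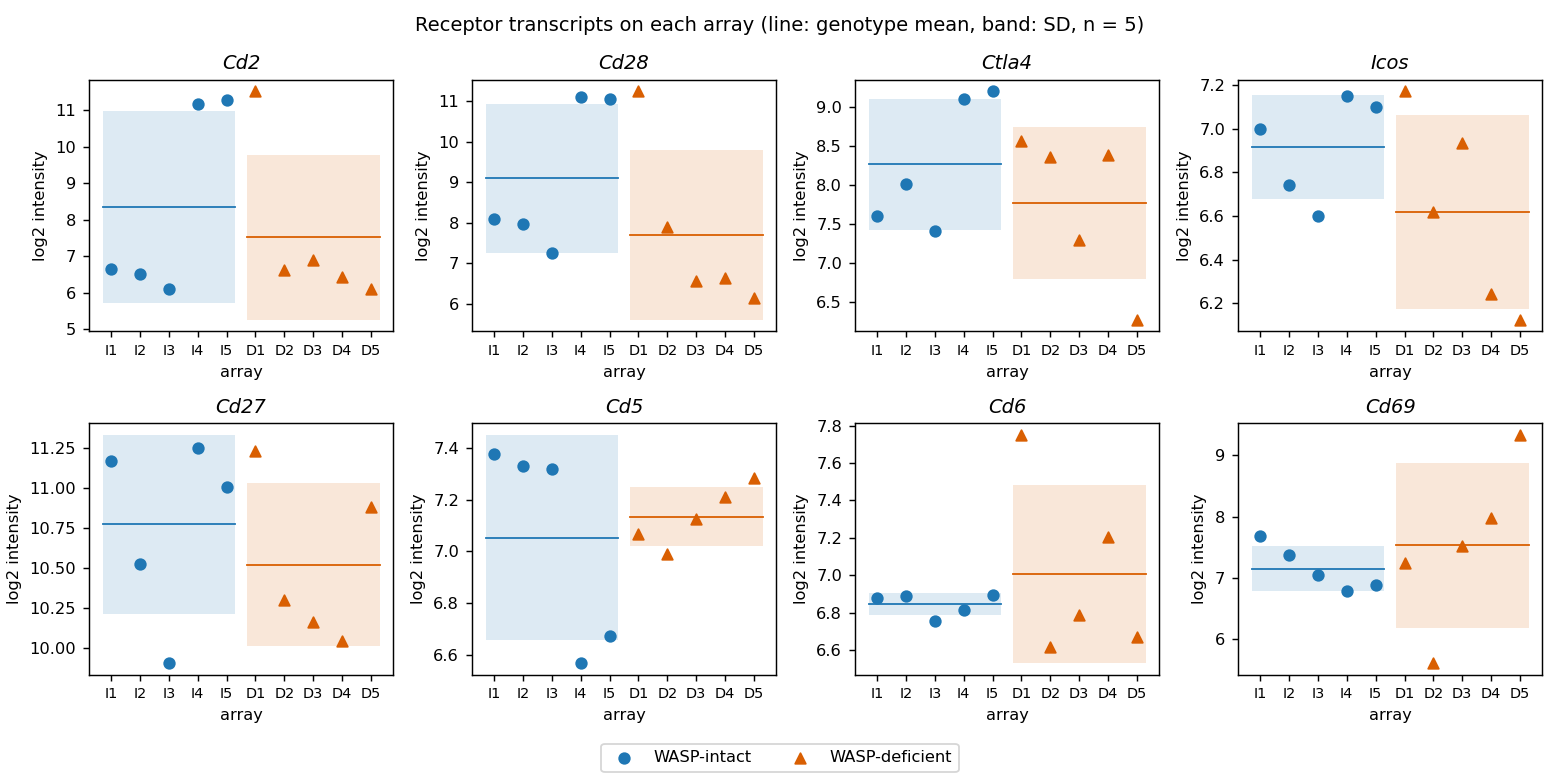
Log2 intensity of each receptor gene on the 10 arrays (I1 to I5 WASP-intact, circles; D1 to D5 WASP-deficient, triangles), with the genotype mean as a line and the SD as a band, on a scale of its own per gene. Cd2 and Cd28 are above 11 on I4, I5 and D1 and under 8.1 elsewhere, while Cd69 peaks at 9.33 on D5.

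All levels on the 3 arrays were higher than on the other 7 for 4 of the 8 genes (Cd2, Cd28, Ctla4 and Icos) and lower for 0. Over all genes 14.4% were higher in this way and 16.1% lower. The component was made from these same arrays and the genes were listed with it in view, so the count is a description. The gap between the sets was 4.28 for Cd2, reached by 8 genes of 12670, Cd2 included, and 2.97 for Cd28, reached by 28. A range of at least 2 log2 units was seen for 4 of the 8 (Cd2, Cd28, Ctla4 and Cd69), against 5.91% of all genes. The share of a gene's variance along the component was 97.9% for Cd2, 92.4% for Cd28, 55.4% for Ctla4 and 53.9% for Icos. It was 70.1% for Cd5, which went down along it, 46.6% for Cd27, 15.7% for Cd6 and 11.8% for Cd69. The median over all genes was 28.4%.

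**Figure D2:**
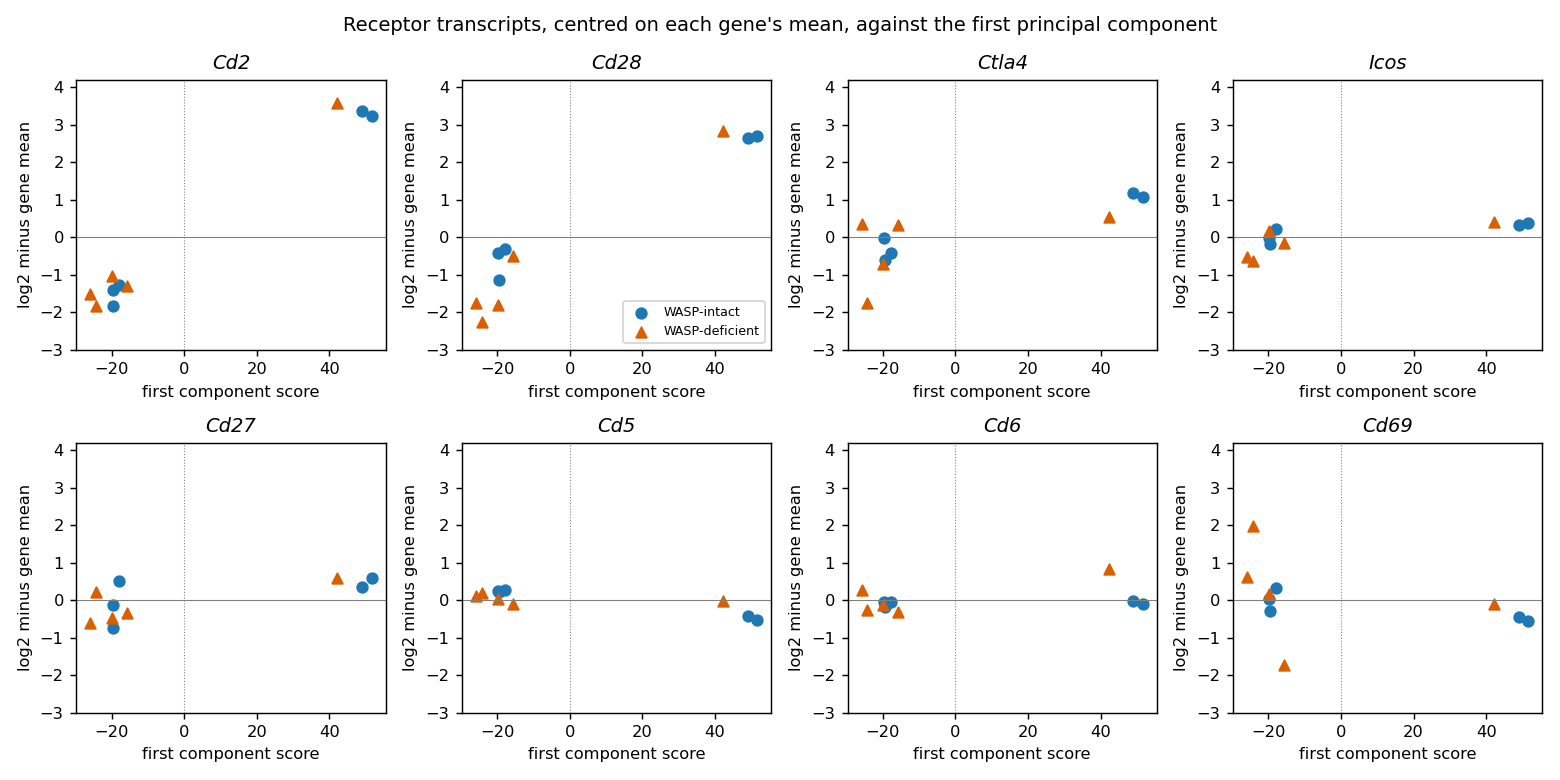
Log2 level minus the gene's mean over 10 arrays (vertical, the same scale in every panel) against the score on the first principal component of all genes, for WASP-intact (circles) and WASP-deficient (triangles) arrays. The 3 arrays at 42.2 to 51.6 are far above the rest for Cd2 and Cd28, slightly above for Ctla4 and Icos, and mixed with or below the rest for the other genes.

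None of the 8 receptor genes differed by genotype past the threshold. Group means were 8.35 ± 2.64 against 7.51 ± 2.26 for Cd2, 9.10 ± 1.84 against 7.70 ± 2.08 for Cd28, 8.26 ± 0.84 against 7.77 ± 0.98 for Ctla4 and 6.92 ± 0.24 against 6.62 ± 0.44 for Icos (log2, WASP-intact against WASP-deficient, SD, n = 5 each). The remaining pairs were 10.77 ± 0.56 and 10.52 ± 0.51 for Cd27, 7.05 ± 0.40 and 7.13 ± 0.12 for Cd5, 6.85 ± 0.06 and 7.01 ± 0.48 for Cd6, and 7.15 ± 0.37 and 7.53 ± 1.35 for Cd69. As WASP-deficient minus WASP-intact, the values were -0.84 for Cd2 (SE 1.37), -1.40 for Cd28 (SE 1.10), -0.49 for Ctla4 (SE 0.51), -0.30 for Icos (SE 0.21) and -0.25 for Cd27 (SE 0.30). They were 0.08 for Cd5 (SE 0.17), 0.16 for Cd6 (SE 0.20) and 0.38 for Cd69 (SE 0.55), and the limma adjusted p was 0.999 for each of the 8. Levels of the 5 and 5 arrays overlapped for all 8, against 0.568% of all genes without overlap. Unadjusted, 0 of the 8 had p under 0.05, against 2.89% of all genes.

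The intervals were wide for the genes that varied most between animals. The 95% interval of the difference ran from -3.88 to 2.21 for Cd2, from -3.83 to 1.04 for Cd28 and from -0.84 to 1.61 for Cd69. It was narrower for Cd5, from -0.30 to 0.46, and for Cd6, from -0.28 to 0.60. Values were lower in WASP-deficient lymphomas for 5 of the 8, with a median of -0.27, against 51.1% lower and a median of -0.004 over all genes. The Cd2 value was -1.84 without WASP-deficient 1 and -0.10 without WASP-intact 5, and without all 3 arrays apart on the component (chosen after the values were seen) it was 0.09 (SE 0.20). On those 7 arrays Cd28 differed by -0.96 (SE 0.39, limma adjusted p = 0.999). The Cd69 value turned to -0.07 without WASP-deficient 5, and the Cd6 value to -0.03 without WASP-deficient 1. With the Xist level as a covariate the value turned to 1.05 for Cd2 (SE 2.19), 0.04 for Cd28 (SE 1.76), 0.19 for Ctla4 (SE 0.82), 0.48 for Cd27 (SE 0.42) and -0.18 for Cd5 (SE 0.27). WASP-intact 3, the single WASP-intact array low in Xist, lay inside the WASP-deficient range for Cd28, Ctla4, Icos, Cd6 and Cd69. It lay just outside for Cd2 (6.10 against a lowest of 6.11), Cd27 (9.90 against a lowest of 10.04) and Cd5 (7.32 against a highest of 7.28).

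**Figure D3:**
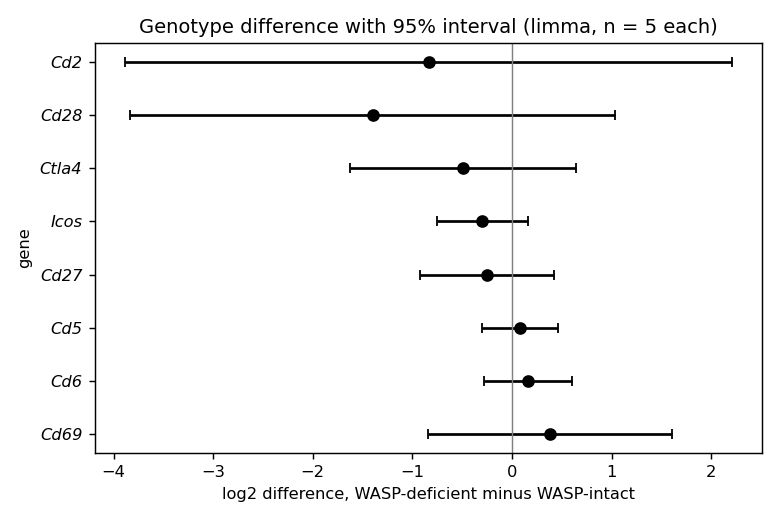
Log2 difference between WASP-deficient and WASP-intact arrays (point) with its 95% interval from limma (bar), n = 5 arrays each, for the 8 receptor genes. Every interval includes 0, and those of Cd2 and Cd28 are the widest, from -3.88 to 2.21 and from -3.83 to 1.04.

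The partners of these receptors were read from 7 lists of ligands, relatives and signalling proteins, chosen with earlier results of these data known. Of the 67 symbols named there, 62 could be read from a probe set of their own and 49 passed the filter. None of the 49 differed by genotype past the threshold, with 19 higher and 30 lower values (61.2% lower, against 51.1% of all genes) and a median of -0.04. An unadjusted p under 0.05 was seen for 3 of the 49, or 6.12%, against 2.89% of all genes. These were Tnfrsf9 (0.45, SE 0.14), the costimulatory TNF receptor 4-1BB, Vav1 (-0.37, SE 0.16), an exchange factor below CD28, and Pstpip1 (-0.23, SE 0.10), the adaptor between CD2 and WASP (limma adjusted p = 0.999 for each). On the 3 arrays apart on the component, levels of 16 of the 49 were all higher than on the other 7 and levels of 6 all lower, beside 14.4% and 16.1% of all genes. The 16 are 32.7% of the 49 and the 6 are 12.2%, the latter no larger a share than over all genes.

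Of the 11 ligand genes named, 6 were tested, and on the 3 arrays high in Cd2 levels of 1 were all higher and levels of 3 all lower than on the rest. Cd48, the CD2 ligand, was at 6.52, 6.64 and 7.13 on WASP-intact 4 and 5 and WASP-deficient 1 and at 7.02 to 8.43 on the other 7, with WASP-deficient 5 the single low array among them. Icosl, which encodes the ICOS ligand, was at 6.42 to 6.57 against 6.84 to 7.70, and Alcam, the CD6 ligand, at 10.21 to 10.51 against 10.67 to 11.32. Cd274, which encodes PD-L1, was lower there as well (8.26 to 8.48 against 8.66 to 9.25), and Pdcd1lg2, for PD-L2, was higher by a narrow margin (7.05 to 7.36 against 6.56 to 7.04). Among B7 ligands of CD28, Cd80 stayed between 6.26 and 6.79, and Cd86 was below the filter, at 5.27 to 6.26. Cd70, the CD27 ligand, was also below it, at 5.39 to 5.92. By genotype the 3 ligand genes of smallest p were Icosl (0.42, SE 0.22), Cd80 (0.07, SE 0.10) and Cd48 (0.21, SE 0.40), with 5 of 6 values higher and a list median of 0.09.

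**Figure D4:**
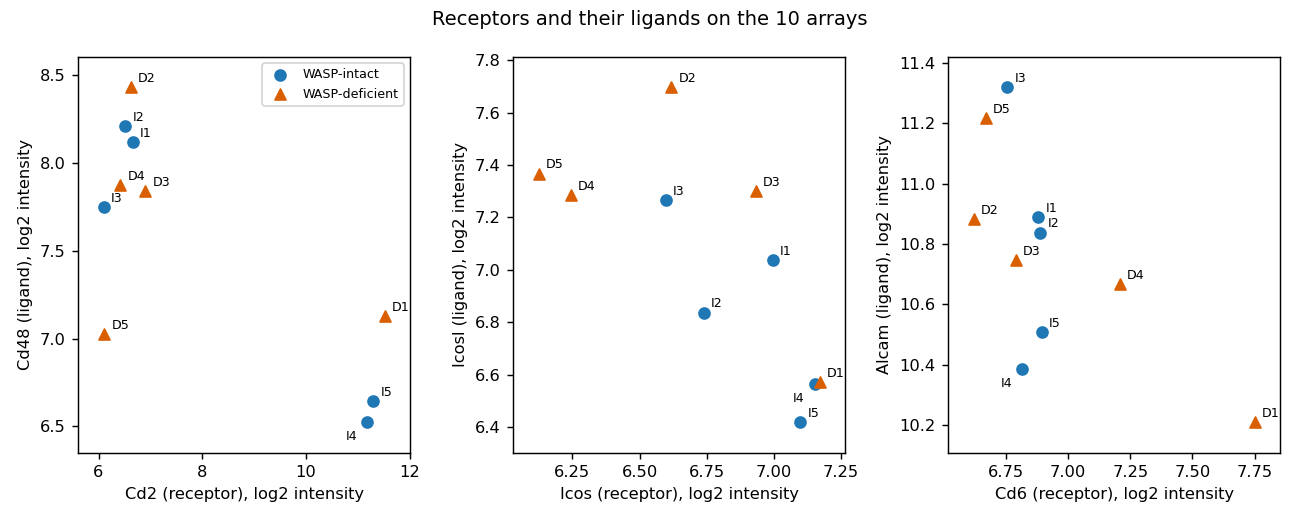
Log2 intensity of a receptor (horizontal) and of its ligand (vertical) on the 10 arrays, labelled as I1 to I5 (WASP-intact, circles) and D1 to D5 (WASP-deficient, triangles). I4, I5 and D1 are low in Icosl (6.42 to 6.57) and Alcam (10.21 to 10.51), and D5 joins them in low Cd48 while its Cd2 is 6.11.

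Of 17 tested receptors related to the 8, 7 were higher on the 3 arrays and 0 lower, against 14.4% and 16.1% of all genes. Btla, an inhibitory relative of CD28, was at 7.85 to 8.63 on the 3 arrays and 5.72 to 6.48 on the others, while its relative Pdcd1 was below the filter. Of the 8 tested CD2 and SLAM relatives, 3 were higher on the 3 arrays and 0 lower. These were Slamf6 (11.52 to 11.93 against 9.23 to 10.88), Slamf1 (8.50 to 8.72 against 6.49 to 8.02) and Ly9 (10.58 to 10.76 against 9.71 to 10.22), homotypic adhesion receptors of lymphocytes. Their smallest p by genotype were those of Slamf7 (0.31, SE 0.17), Slamf1 (-0.71, SE 0.43) and Slamf6 (-0.59, SE 0.48), and the list median was -0.13. Of 6 tested TNF receptor relatives, 3 were higher there (Tnfrsf8, Tnfrsf18 and Tnfrsf1b), with Tnfrsf8, which encodes CD30, at 10.31 to 10.50 against 7.96 to 9.01. Their median difference by genotype was -0.15, with Tnfrsf14 at -0.14 (SE 0.11) and Tnfrsf18 at -0.21 (SE 0.19) next after Tnfrsf9. Cd5l and Ssc5d, the tested scavenger receptor relatives, overlapped and differed by genotype by 0.14 (SE 0.32) and -0.04 (SE 0.10).

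Lectin genes near Cd69 were mostly under the filter, with 4 of 8 in this list tested and 0 of the 4 apart on the 3 arrays. Over all genes 14.4% were all higher there and 16.1% all lower. Clec2i had the widest range, 4.38, at 9.64, 9.91, 6.25, 8.71 and 8.57 on WASP-intact arrays 1 to 5 and at 9.59, 8.30, 10.28, 6.32 and 5.90 on WASP-deficient arrays 1 to 5. It was thus low on WASP-intact 3 and WASP-deficient 4 and 5, a set different from that of Cd2, and 2 of these 3 arrays were the highest in Cd69. By genotype Klf2 differed by 0.31 (SE 0.21), Clec2i by -0.54 (SE 0.95), Clec2d by 0.10 (SE 0.20) and S1pr1 by 0.01 (SE 0.18), with a list median of 0.06.

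Signalling partners inside the cell held 23 tested genes, of which 8 (34.8%) were higher and 3 (13.0%) lower on the 3 arrays. Over all genes these shares were 14.4% and 16.1%, so the share lower was under that of all genes. Ubash3a, a phosphatase family member that dampens T cell receptor signals, was at 10.73 to 10.86 against 7.21 to 8.81. Prkcq, the protein kinase C below CD28, was at 11.31 to 11.36 against 8.25 to 9.94, and Cblb, a ubiquitin ligase that sets the need for CD28, at 11.42 to 11.86 against 9.70 to 10.59. Vav1, Grap2, Pik3cd, Ptpn6 and Sh2d1a were the other 5 higher genes. The 3 lower were Fyn, a Src kinase bound by CD2 (10.59 to 10.73 against 11.0 to 11.57), Siva1, a partner of CD27 (7.83 to 8.31 against 8.54 to 9.04), and Lrba, which keeps CTLA-4 from degradation (8.75 to 8.90 against 9.39 to 9.96). The adaptors of the CD2 tail overlapped, with Pstpip1 at 8.79 to 9.28, Cd2ap at 10.55 to 11.03 and Cd2bp2 at 8.58 to 8.89 over all arrays. By genotype 16 of the 23 values were lower, with a median of -0.19, and Cbl, at -0.19 (SE 0.10), had the smallest p after Vav1 and Pstpip1.

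**Figure D5:**
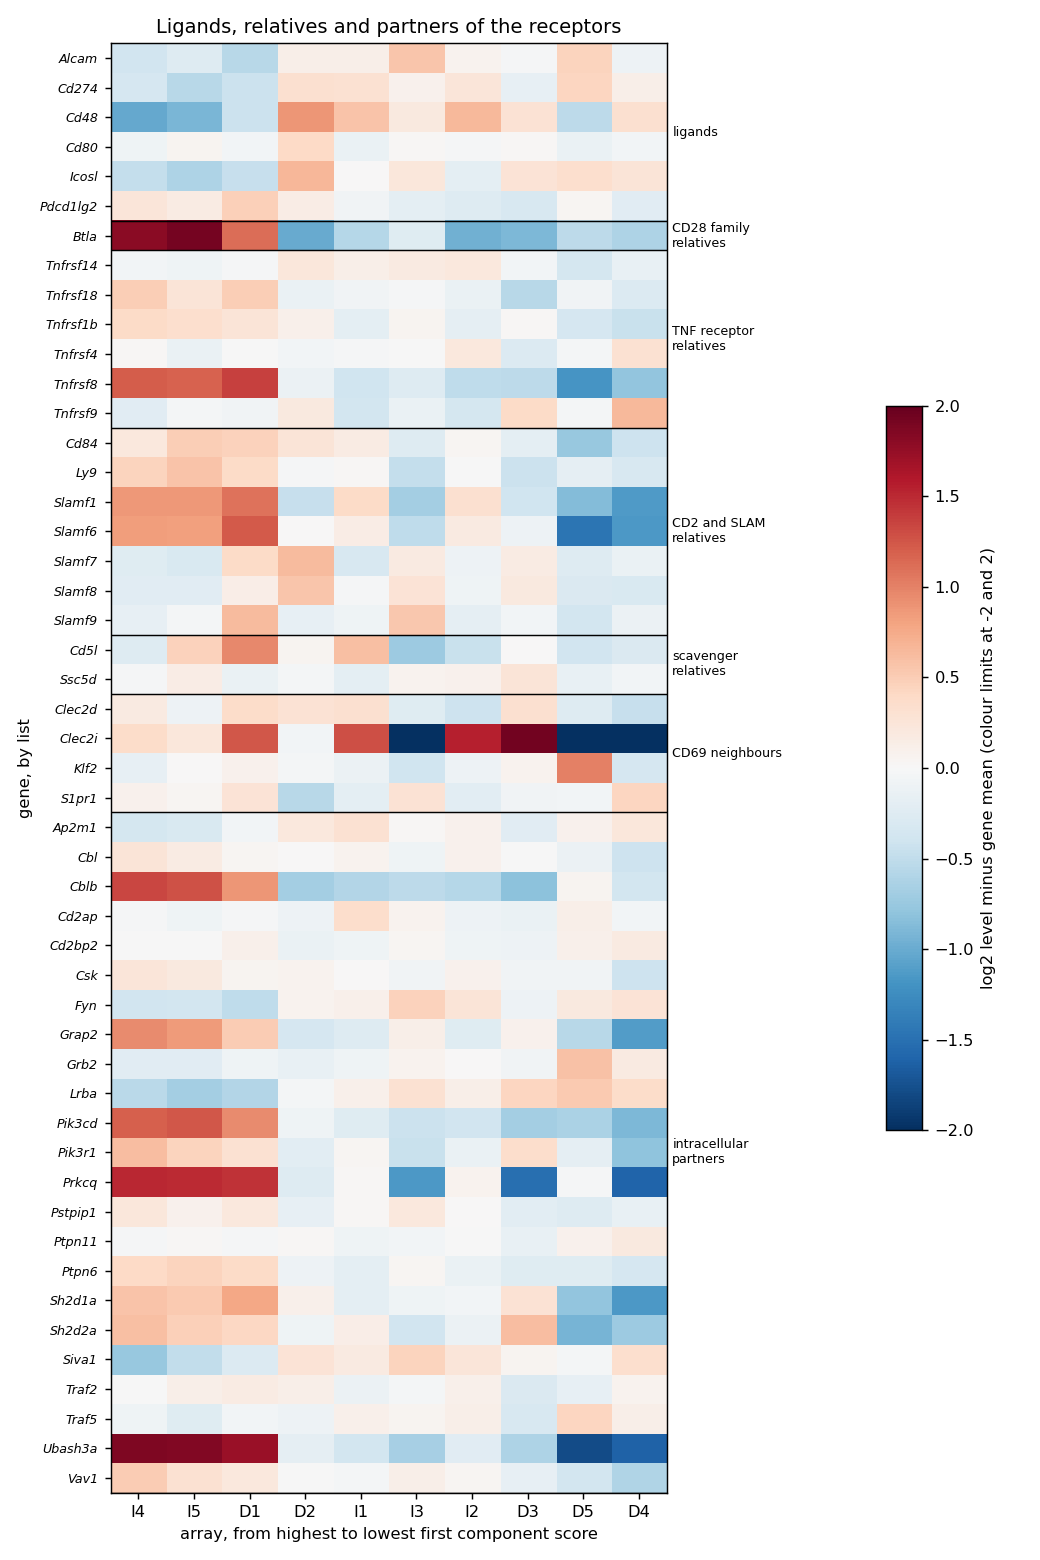
Log2 level minus the gene's mean (colour, limited to -2 and 2) for the 49 tested ligands, relatives and partners (rows, grouped by list) on the 10 arrays (columns, from the highest to the lowest first component score). The left 3 columns (I4, I5, D1) are red for Btla, Tnfrsf8, Slamf6, Cblb, Prkcq and Ubash3a and blue for Cd48, Icosl, Alcam, Fyn and Lrba.

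The genes closest in pattern were ranked by the root mean square difference of centred log2 levels over the 10 arrays, for the 4 receptors with a range of at least 2. Nearest to Cd2 were Lonrf1 (0.28), Gm10384 (0.31) and Snai3 (0.32), a repressor of the Snail family, which were at 11.30 to 11.38, 10.06 to 10.25 and 10.71 to 11.28 on the 3 arrays. Nearest to Cd28 were Pstpip2 (0.43), Myrfl (0.50) and I730030J21Rik (0.50). Ctla4 was followed by Mical1 (0.38), an enzyme that takes apart actin filaments, Polr3g (0.41) and the long noncoding RNA gene Morrbid (0.43). The genes nearest to Cd69 were Izumo1r (0.44), which encodes folate receptor 4 of regulatory and naive T cells, the receptor gene Gpr83 (0.50) and 1700001L05Rik (0.52). Izumo1r and Gpr83 shared the peak of Cd69 on WASP-deficient 5, at 9.15 and 9.59. Both were lowest on WASP-intact 4 (6.15 and 6.49), where Cd69 was at 6.78. On WASP-deficient 2, where Cd69 was lowest, Izumo1r was nearly as low (6.20) and Gpr83 was at 6.91.

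Markers of T cells and of other cells were set beside these levels. Over all genes, 14.4% were all higher and 16.1% all lower on the 3 arrays, the shares to read beside the counts here. Of 11 T cell markers 9 had a probe set and passed the filter; on the 3 arrays 0 were higher than on the other 7 and 2, Cd3d and Cd3g, were lower. The summed T cell marker level (log2 of the sum of intensities) was 14.08 to 14.40 on the 3 arrays and 14.11 to 14.51 on the 7, and 14.08 to 14.51 on WASP-intact against 14.11 to 14.40 on WASP-deficient arrays. All 6 markers of immature thymocytes passed the filter, with 0 higher and 1, Ptcra, lower on the 3 arrays. Regulatory T cells carry much CTLA-4 and ICOS. Of their 5 markers 2 (Ikzf2 and Tnfrsf18) were higher on the 3 arrays, while Foxp3, which defines them, lay between 6.03 and 6.53 on all 10. Il2ra and Lrrc32 overlapped, with Il2ra at 10.51 on WASP-deficient 1 and at 5.47 to 8.28 elsewhere. The sum was 10.07 to 11.18 on the 3 arrays against 9.06 to 9.67, and its highest value, on WASP-deficient 1, followed Il2ra. By genotype that sum was 9.06 to 10.17 on WASP-intact and 9.26 to 11.18 on WASP-deficient arrays. Of 5 fibroblast markers 3 (Pdgfra, Dcn and Lum, the last below the filter) were higher on the 3 arrays, while Col1a1 and Col3a1 overlapped. The fibroblast sum was 11.43 to 12.21 on the 3 arrays against 10.11 to 11.31. By genotype it was 10.49 to 12.21 on WASP-intact and 10.11 to 11.43 on WASP-deficient arrays. For NK cells, which carry CD2, CD27 and CD69, 5 of 6 markers were below the filter, Ncr1 and Klrb1c among them, and the sixth, Gzma, was higher on the 3 arrays. The other 5 lay between 3.67 and 5.14 on all arrays and overlapped. The sum of the 6, which followed Gzma (8.85 to 11.71), was 10.84 to 11.76 on the 3 arrays and 9.20 to 10.74 on the other 7. B cell markers Ms4a1, Cd79a and Pax5 were below the filter, and 0 of 5 B cell and 1 of 8 macrophage markers were higher on the 3 arrays. Adipocyte markers, all 4 of which passed the filter, had the one sum among all marker lists that did not overlap by genotype. The margin was narrow, with 10.07 to 10.45 on WASP-intact and 9.61 to 10.04 on WASP-deficient arrays. Of the 4 genes only Adipoq did not overlap by genotype (6.60 to 7.56 against 5.45 to 6.35), beside 0.568% of all genes. On the 3 arrays 0 of the 4 were set apart. Epithelial marker sums overlapped by little, with 9.45 to 10.28 on WASP-intact and 10.15 to 11.21 on WASP-deficient arrays. All 6 epithelial markers passed the filter. Among them only Cldn4 did not overlap by genotype (6.84 to 7.30 against 7.39 to 7.85), and 0 were set apart on the 3 arrays. Of 5 muscle markers 0 were set apart on the 3 arrays as a set. Ckm, however, was at 10.95 on WASP-intact 4, 1 of the 3, and at 7.08 to 7.28 elsewhere. The muscle sum was 11.33 on that array and 8.91 to 9.67 elsewhere. The part of these cells in the receptor levels was not tested.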

How the data were processed

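RNA of 10 primary lymphomas was hybridised to 1 array each. The authors deposited intensity values per probe set, made with RMA per the submitters' processing notes (background correction, quantile normalization over arrays, probe set summary). The software, its version and its annotation were not stated in the labels. They ran from 3.309 to 15587.9, a linear scale, so log2 was taken. Array medians lay between 116.7 and 122.7, 0 columns were identical, and the number of arrays limits the precision.

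Of 34760 probe sets, 21640 had 1 gene symbol, 1321 several and 11799 none in the platform's annotation table; 21553 of the 21640 gene IDs matched RefSeq genes (GRCm38.p6, used for names, gene order and promoters). Probe sets with a mean under the 40th percentile (log2 6.35) were left out and the probe set of highest mean kept per gene. Genotypes (5 and 5 arrays, from the sample titles) were compared over 12670 genes with limma 3.58.1 (lmFit, eBayes) in R 4.3.3, no covariate, Benjamini-Hochberg over all genes, threshold 0.05, a step tested on simulated data. The component score had an exact permutation test over 252 splits. Principal components used gene-centred values in numpy 2.4.6, signed so that Cd2 is positive, and figures matplotlib 3.10.9 in Python 3.11.15. Alternatives were other filters, probe set rules, priors, weights, scalings, covariates, the replicate number as a block and leaving out arrays.

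The members, lists, markers and tests were chosen with earlier results of these data known. Genes named were Was, the 8 receptors, the 3 nearest in pattern to each receptor with a range of at least 2 log2 units, the 3 members of smallest p and the 3 widest with that range in each list, the members' ligands, Pstpip1 and markers; chromosomal neighbours were named by position. Any other gene was named after its values were seen. Some listed genes and markers were not analysed here.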

Additional observations from a re-analysis of the deposited data

Results flagged for a closer look

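Cd2 on WASP-deficient array 1 was at 11.52, far from the other 4 WASP-deficient arrays: its distance to the nearest of them was 0.854 of the group's range, above Dixon's 95% critical value of 0.71 for 5 samples. It was the single such value among 18 groups of 5 checked (8 receptor genes and Was in both genotypes), where about 1 in 20 groups is marked by chance. This array is in the high set of Cd2 described above, with WASP-intact 4 and 5 at 11.18 and 11.30, and is the only WASP-deficient one there. On that array Cd28 was at 11.24 and Cd6 at 7.75, each the highest of the 10. Without it the genotype difference was -1.84 for Cd2 (SE 1.16, limma adjusted p = 0.663).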

How the results depend on the processing

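No receptor gene and no gene of the ligand, relative and partner lists passed the threshold under any of the 20 alternatives. The number of genes called over all genes was 0 with the Xist level as a covariate and 0 with the replicate block, 1 to 4 when single arrays were left out (4 without WASP-intact 3, being Was, Xist, Kdm5d and Uty; 2 without WASP-deficient 1, being Was and Atp4a), 2 with the component score as a covariate and 2 when the 3 arrays with positive scores were removed (both chosen after seeing the data). Was was at -1.06 with the Xist covariate (limma adjusted p = 0.376) and at -1.14 with the replicate block (adjusted p = 0.136). The block changed no call of a receptor gene. Same-numbered arrays correlated between -0.71 and 0.37 across genes, with each gene centred within its genotype. The 3 arrays apart on the component weigh on these values, so they cannot tell whether the numbers pair the arrays.

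Genotype values that turned sign, none past the threshold, were these. With array weights Cd2 was at 0.19, Cd5 at -0.17 and Cd69 at -0.18. With the Xist covariate Cd2 was at 1.05, Cd28 at 0.041, Ctla4 at 0.19, Cd27 at 0.48 and Cd5 at -0.18. With the component as a covariate Cd2 was at 0.43 and Cd5 at -0.046, and without the 3 arrays Cd2 was at 0.088, Cd5 at -0.19 and Cd6 at -0.0203. Leaving out single arrays gave Cd5 from -0.041 (without WASP-intact 4) and -0.014 (WASP-intact 5) to 0.16, Cd6 from -0.026 (WASP-deficient 1) to 0.26 and Cd69 from -0.067 (WASP-deficient 5) to 0.87. The cause was not tested. Icos, Cd5, Cd6 and Cd69 were under the filter at the 60th percentile.

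The component held 60.71% of the variance without the 8 receptor genes, 35.3% with scaled genes and 55.05% without the filter, with the same 3 arrays above 0 in each. Its exact permutation p by genotype lay between 0.206 and 0.222.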
